A study of Mus musculus with 8 samples.

Results

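The immediate-early transcription factors are 10 genes taken by name: Fos, Fosb, Jun, Junb, Jund, Egr1, Egr2, Egr3, Atf3 and Nr4a1. All 10 were present among the 20340 genes of each of the 8 deposited single-cell count tables. The cells came from the brains of male C57BL/6J mice, 8 to 9 weeks old, that were either Prdx1+/+ (label WT) or Prdx1-/-. In every animal the middle cerebral artery was blocked for 60 min by a suture inside the vessel, under isoflurane, and blood flow was then restored by withdrawing the suture. Each combination of genotype label, hemisphere (ipsilateral or contralateral to the blocked artery) and time (24 h or 48 h) gave 1 library. No group had a replicate, and the labels do not say how many animals a library holds, so every p-value below measures spread between libraries, which may be technical. Contralateral libraries came from animals that also had the occlusion and the surgery. Every hemisphere was perfused cold, digested with enzymes at 37 °C including a 30 min incubation, cleared of myelin on Percoll of 40% and 80%, stained with a Zombie dye, sorted for live cells and run on 10x 3' chemistry.

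Immediate-early genes are transcribed within minutes of a stimulus without the need for new protein, because the factors that switch them on are already present in the cell. Fos, Fosb and the Jun proteins pair through leucine zippers to form AP-1. Atf3 is a stress-induced zipper protein that pairs with Jun proteins, the Egr proteins are zinc finger factors, and Nr4a1 (Nur77) is an orphan nuclear receptor. In the brain these genes are known as markers of neuronal activity, and in microglia, the resident macrophages of the brain, warm enzymatic digestion of the tissue is known to induce them. All cell types of a library passed through the same digestion, so cell types are compared here within a library. That removes only what all cells of a library share. A response to digestion that differs between cell types cannot be told apart here from a difference present before it.

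The promoters of 4 members on which the results turn are shown to let a reader see short elements of the kind through which serum and cyclic AMP signals are known to reach these genes. Each line holds the 250 bases before the RefSeq start site, read 5′ to 3′ on the strand of the gene from RefSeq (GRCm38.p6). The windows are chr12:85473640-85473889 on the plus strand for Fos, chr4:95052223-95052472 on the minus strand for Jun, chr10:67537619-67537868 on the plus strand for Egr2 (of its several RefSeq starts, one with the most matches) and chr15:101266596-101266845 on the plus strand for Nr4a1.
Fos: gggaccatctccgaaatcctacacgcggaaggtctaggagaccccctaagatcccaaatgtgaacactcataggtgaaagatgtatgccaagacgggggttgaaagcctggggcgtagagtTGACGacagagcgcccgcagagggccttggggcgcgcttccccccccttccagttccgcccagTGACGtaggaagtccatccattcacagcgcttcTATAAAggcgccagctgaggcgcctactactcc
Jun: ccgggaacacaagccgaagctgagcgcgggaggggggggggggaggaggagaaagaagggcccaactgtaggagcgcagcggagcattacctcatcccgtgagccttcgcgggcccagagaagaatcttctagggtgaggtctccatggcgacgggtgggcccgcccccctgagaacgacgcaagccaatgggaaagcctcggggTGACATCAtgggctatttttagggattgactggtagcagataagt
Egr2: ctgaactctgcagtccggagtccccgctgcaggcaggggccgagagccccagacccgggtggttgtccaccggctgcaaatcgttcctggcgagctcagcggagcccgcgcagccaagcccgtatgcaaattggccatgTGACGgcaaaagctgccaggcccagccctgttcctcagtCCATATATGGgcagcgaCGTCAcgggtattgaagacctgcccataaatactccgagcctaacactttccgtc
Nr4a1: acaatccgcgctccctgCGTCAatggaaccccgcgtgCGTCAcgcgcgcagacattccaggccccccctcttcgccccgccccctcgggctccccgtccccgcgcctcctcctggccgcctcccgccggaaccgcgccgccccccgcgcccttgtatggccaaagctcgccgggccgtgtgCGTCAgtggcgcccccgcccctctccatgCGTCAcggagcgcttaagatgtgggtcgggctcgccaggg
Capitals mark matches to 4 motifs searched on both strands: the core of the cyclic AMP response element, TGACG, which is read as CGTCA on the other strand, the Jun-type AP-1 element TGACATCA, the CArG box bound by serum response factor, and TATAAA.

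In these windows Fos held TGACG at -129 and -66 and TATAAA at -33, counted from the first base of the match, with -1 the base before the start site. Jun held TGACATCA at -45. Egr2 held TGACG at -111, the CArG box at -72 and CGTCA at -55. Nr4a1 held CGTCA 4 times, at -233, -213, -69 and -40. Over 32851 RefSeq promoters, in windows that also include the first 50 bases after the start, this core was found in 20.8%, TATAAA in 13.6%, TGACATCA in 3.62% and the CArG box in 1.63%. A match is a run of letters and not a shown binding site.

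The deposited tables held 39945 cells, with 4189 to 5759 cells and 39433266 to 70111421 UMIs (unique molecules counted) per library. After filters and removal of 1583 top-scoring doublets, 38025 cells were used, and 203 of 39742 cell barcodes (0.511%) occurred in more than 1 library. Cells took a class name from fixed marker genes, none of them a member, and 1822 cells (4.79%) stayed without a name. The 20439 microglia-like, 7660 monocyte/macrophage-like, 5703 neutrophil-like and 718 T and NK-like cells (T cells and natural killer cells) covered all 8 libraries with at least 20 cells each. The 761 B-like cells covered 7 libraries, because the contralateral 24 h library labelled Prdx1-/- held 10. All 12 microglial markers were detected in microglia-like cells, and also in monocyte/macrophage-like, neutrophil-like, T and NK-like and B-like cells. At least 97.5% of the cells of these classes fell in a cluster of the same name. Clusters were named from the same marker scores as the gates, so that share is not an independent check. Prdx1, the targeted gene, was not absent in the 24 h libraries labelled Prdx1-/-. In microglia-like cells it stood at 260 to 661 CPM (UMI counts of the gene scaled to a common total) in the 4 libraries labelled WT. It stood at 5.94 and 5.52 CPM in the 48 h libraries labelled Prdx1-/-. In the 24 h libraries with that label it stood at 89.6 CPM contralaterally and 309 CPM ipsilaterally. The WT label at 24 h gave 260 and 471 CPM, so Prdx1 was lower there with the Prdx1-/- label but still present. Median UMIs per cell were 8256 in microglia-like, 15448 in monocyte/macrophage-like and 4482 in neutrophil-like cells.

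Most members were higher in microglia-like cells than in the monocyte/macrophage-like, neutrophil-like, T and NK-like and B-like cells of the same library. Levels are given as CPM of all UMIs summed over the cells of a class in a library. Fos, which pairs with Jun in AP-1, ranged in microglia-like cells from 1814 to 4781 CPM with a median of 3767 CPM. It ranged from 1083 to 2516 CPM (median 1441 CPM) in monocyte/macrophage-like cells, from 430 to 1712 CPM (median 729 CPM) in neutrophil-like cells, from 211 to 780 CPM (median 337 CPM) in B-like cells and from 130 to 327 CPM (median 265 CPM) in T and NK-like cells. The order of these medians followed from microglia-like down to T and NK-like cells, and neighbouring ranges overlapped at each step. Fosb, a close relative of Fos, ran from 160 to 753 CPM (median 596 CPM) in microglia-like cells, against 127 to 297 CPM (median 207 CPM) in monocyte/macrophage-like and 30.8 to 173 CPM (median 76.6 CPM) in neutrophil-like cells. Its lowest microglial level, in the contralateral 24 h library labelled WT, lay inside the range of each of the other 4 classes.

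Among the Jun genes, Jun itself, the founding partner of AP-1, separated microglia-like cells most plainly. It ranged from 3749 to 6644 CPM (median 4490 CPM) there, against 316 to 794 CPM (median 449 CPM) in monocyte/macrophage-like and 192 to 323 CPM (median 293 CPM) in neutrophil-like cells. No library of another of these classes reached the lowest microglial Jun level. The highest lymphoid values were 1088 CPM in T and NK-like and 1459 CPM in B-like cells, both in the contralateral 24 h library labelled WT. Junb, which often acts against Jun, was at 2958 to 4875 CPM (median 3559 CPM) in microglia-like cells, 1213 to 4234 CPM (median 2587 CPM) in neutrophil-like, 1644 to 2636 CPM (median 1922 CPM) in monocyte/macrophage-like, 1522 to 2001 CPM (median 1711 CPM) in T and NK-like and 916 to 1679 CPM (median 1543 CPM) in B-like cells. Its microglia-like and neutrophil-like ranges overlapped, and the other 3 classes lay below the microglial range. Jund, the member of the family that most cells express without stimulation, was at 1426 to 3866 CPM (median 2259 CPM) in microglia-like and at 1484 to 2081 CPM (median 1786 CPM) in B-like cells, ranges that overlapped. In monocyte/macrophage-like cells Jund reached only 423 to 679 CPM (median 602 CPM).

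Egr1, a zinc finger factor that answers growth factor and stress signals, ranged from 825 to 2401 CPM (median 2008 CPM) in microglia-like cells. It was at 63.6 to 180 CPM (median 104 CPM) in monocyte/macrophage-like cells and at 52.1 to 939 CPM (median 319 CPM) in neutrophil-like cells, whose highest library alone passed the lowest microglial one. Egr2, a factor needed for myelination in peripheral nerve, was at 19.4 to 128 CPM (median 54.7 CPM) in microglia-like cells and at 1.71 to 40.3 CPM (median 11.2 CPM) in neutrophil-like cells. Egr3, a close relative of Egr2, was at 19.5 to 125 CPM (median 42.9 CPM) in microglia-like, 4.27 to 117 CPM (median 29.6 CPM) in neutrophil-like, 16.2 to 118 CPM (median 31.8 CPM) in B-like and 3.23 to 6.69 CPM (median 5.40 CPM) in monocyte/macrophage-like cells. For Egr3 the ranges of microglia-like, neutrophil-like and B-like cells thus overlapped, and the monocyte/macrophage-like range lay below the microglial one. Atf3 ranged from 1744 to 3741 CPM (median 2713 CPM) in microglia-like cells, from 249 to 938 CPM (median 477 CPM) in monocyte/macrophage-like and from 46.1 to 235 CPM (median 94.9 CPM) in neutrophil-like cells. Nr4a1, which is induced by antigen receptor and inflammatory signals, had another order: 373 to 528 CPM (median 430 CPM) in monocyte/macrophage-like cells, against 114 to 469 CPM (median 222 CPM) in microglia-like, 81.2 to 337 CPM (median 192 CPM) in neutrophil-like and 62.9 to 348 CPM (median 228 CPM) in B-like cells.

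**Figure D1:**
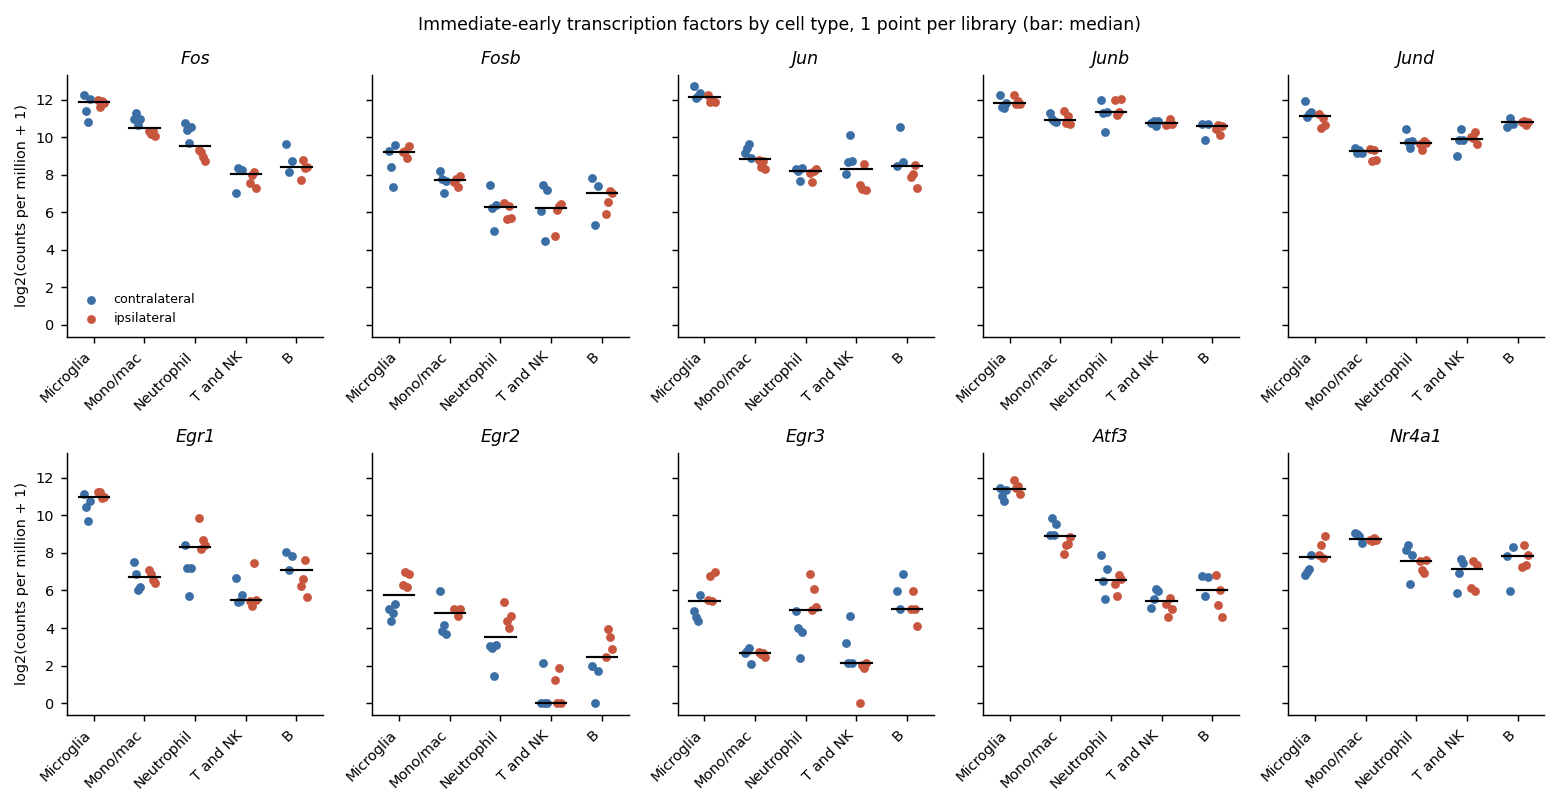
Level of each member, as log2(CPM + 1) of the UMIs summed over a class, in 5 immune classes, with 1 point per library of at least 20 cells (blue contralateral, red ipsilateral) and a bar at the median. Jun in microglia-like cells, at 3749 to 6644 CPM, lies above every point of the other 4 classes, whereas Nr4a1 has its highest median in monocyte/macrophage-like cells, at 430 CPM.

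Tests within libraries gave the sizes of these differences, from edgeR's quasi-likelihood test with the library as a block and Benjamini-Hochberg adjustment over all genes, called at an adjusted p under 0.05. In monocyte/macrophage-like against microglia-like cells, 8 members were lower, 1 was higher and 1 did not pass. Of all genes tested there, 37.9% were lower and 31.7% were higher. The median log2 difference was -1.12 over the members and -0.14 over all genes. Egr1 (log2 -3.63 ± 0.15 SE, edgeR adjusted p = 1.21e-09), Egr3 (-2.78 ± 0.38) and Jun (-2.75 ± 0.14) differed most. Nr4a1 alone was higher, by 1.59 ± 0.27 on the log2 scale (adjusted p = 0.000358, n = 8 libraries), and its CPM was higher in 7 of 8 libraries. With library totals alone the difference was 1.08. Egr2 did not pass (-0.63 ± 0.32, edgeR adjusted p = 0.102). In the 4 contralateral libraries alone Fos (-0.13), Fosb (-0.47) and Junb (-0.31) did not pass either, with edgeR adjusted p-values of 0.651, 0.127 and 0.0716.

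In neutrophil-like against microglia-like cells, 6 members were lower, 2 were higher and 2 did not pass, where 43.1% of all genes were lower and 31.9% were higher. Atf3 (log2 -3.70 ± 0.24, edgeR adjusted p = 4.05e-09) and Jun (-2.99 ± 0.17, edgeR adjusted p = 1.48e-09) were lower by most, followed by Egr1 (-1.75 ± 0.26), Fosb (-1.73 ± 0.23), Egr2 (-1.04 ± 0.24) and Fos (-0.96 ± 0.25). Junb (0.64 ± 0.17) and Nr4a1 (0.84 ± 0.31) were called higher with TMM, a scaling that sets most genes near no change, and with the size factors of DESeq2 (0.45 and 0.67), but with library totals alone they were at -0.45 and -0.25. Neutrophil-like CPM was in fact above microglia-like CPM in 1 of 8 libraries for Junb and in 3 of 8 for Nr4a1. The scaling moves every gene in these comparisons: the median over all genes was -0.29 with TMM and -1.39 with totals in neutrophil-like against microglia-like cells, and -0.14 against -0.66 in monocyte/macrophage-like against microglia-like cells. With totals, 16.0% of genes were higher and 67.6% lower in the first, and 18.8% and 58.9% in the second. Nr4a1 also lost its call without any 1 of 3 libraries: the contralateral one at 24 h with the label Prdx1-/- (0.66, edgeR adjusted p = 0.0613), its ipsilateral counterpart (0.85, edgeR adjusted p = 0.0515) and the contralateral one at 48 h with the label WT (0.81, edgeR adjusted p = 0.0549). In the 4 contralateral libraries alone Fos (-0.33, edgeR adjusted p = 0.259) and Junb (0.36, edgeR adjusted p = 0.225) did not pass, and in the 4 ipsilateral libraries alone Nr4a1 (0.21, edgeR adjusted p = 0.446) did not. Jund (-0.32 ± 0.15, edgeR adjusted p = 0.0662) and Egr3 (0.34 ± 0.48, -0.75 with totals) did not pass over all 8 libraries. Jund was nevertheless lower in neutrophil-like cells in 8 of 8 libraries in CPM, without overlap of the ranges. It was called lower with totals (-1.40), DESeq2 (-0.51, DESeq2 adjusted p = 1.89e-06), no filter (-0.50), doublets kept (-0.35), the contralateral libraries alone (-0.59) and without the ipsilateral 48 h library labelled WT (-0.44).

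All 10 members were lower in T and NK-like than in microglia-like cells, where 36.6% of all genes were lower and 25.8% higher, and 7 were lower in B-like cells with none higher, where 33.1% of all genes were lower and 23.2% higher. In T and NK-like cells Atf3 (log2 -5.89 ± 0.23, edgeR adjusted p = 4.53e-09) and Egr1 (-4.92 ± 0.31) were lower by most among members with more than a few UMIs, and Nr4a1 (-0.76 ± 0.29, edgeR adjusted p = 0.0474) by least. In T and NK-like cells the Nr4a1 call did not hold in 6 of the 8 fits that left out 1 library, where the edgeR adjusted p was 0.0625 to 0.134, and it held without the contralateral 24 h library labelled WT and without the contralateral 48 h library labelled Prdx1-/-. Egr2 rested on 0 to 2 UMIs per library in T and NK-like cells and its size cannot be given. In B-like cells Atf3 (-5.21 ± 0.32), Egr1 (-3.63 ± 0.49), Jun (-3.53 ± 0.39), Egr2 (-3.43 ± 0.26), Fos (-3.05 ± 0.32), Fosb (-2.09 ± 0.31) and Junb (-1.31 ± 0.13) were lower. Jund (-0.17 ± 0.12), Egr3 (-0.01 ± 0.53) and Nr4a1 (-0.13 ± 0.24) did not pass in B-like cells. In the contralateral libraries alone Jund in T and NK-like cells (-1.48, edgeR adjusted p = 0.0959) and Jun in B-like cells (-2.93, edgeR adjusted p = 0.099) did not pass, and Egr3 in B-like cells was called higher (1.21, edgeR adjusted p = 0.000239). In the ipsilateral libraries alone Egr3 was called lower in B-like cells (-0.97, edgeR adjusted p = 0.0143), as was Nr4a1 (-0.41, edgeR adjusted p = 0.0227), so Egr3 had opposite calls in the 2 hemispheres. The contralateral B-like fit lacks the 24 h library labelled Prdx1-/-, which held 10 B-like cells.

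Some member values were at or below the level of microglial transcripts in the same cells. The 12 microglial markers, summed, stood in T and NK-like cells at 3.35% to 5.77% of their microglia-like level in the same library, in B-like cells at 1.71% to 3.42%, in neutrophil-like cells at 3.55% to 9.95% and in monocyte/macrophage-like cells at 3.94% to 6.75%. Atf3 in T and NK-like cells was at or below that share of its own microglial level in 7 of 8 libraries, as was Egr2, and Egr1 was in 5 of 8. In neutrophil-like cells Atf3 was so in 7 of 8 libraries and Jun in 3 of 8, and in B-like cells Atf3 was so in 4 of 7. Fos, Jun and Egr3 in T and NK-like cells were so in 3 of 8 libraries each. In monocyte/macrophage-like cells, where Egr1 and Egr3 differed most from microglia-like cells, Egr1 was so in 3 of 8 libraries (median 5.20% of its microglial level) and Egr3 in 2 of 8. The part of transcripts carried over from microglia in these values was not tested, and the sizes given for these members rest on them. Junb, Jund and Nr4a1 stood above the marker share in every library of each of the 4 classes.

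**Figure D2:**
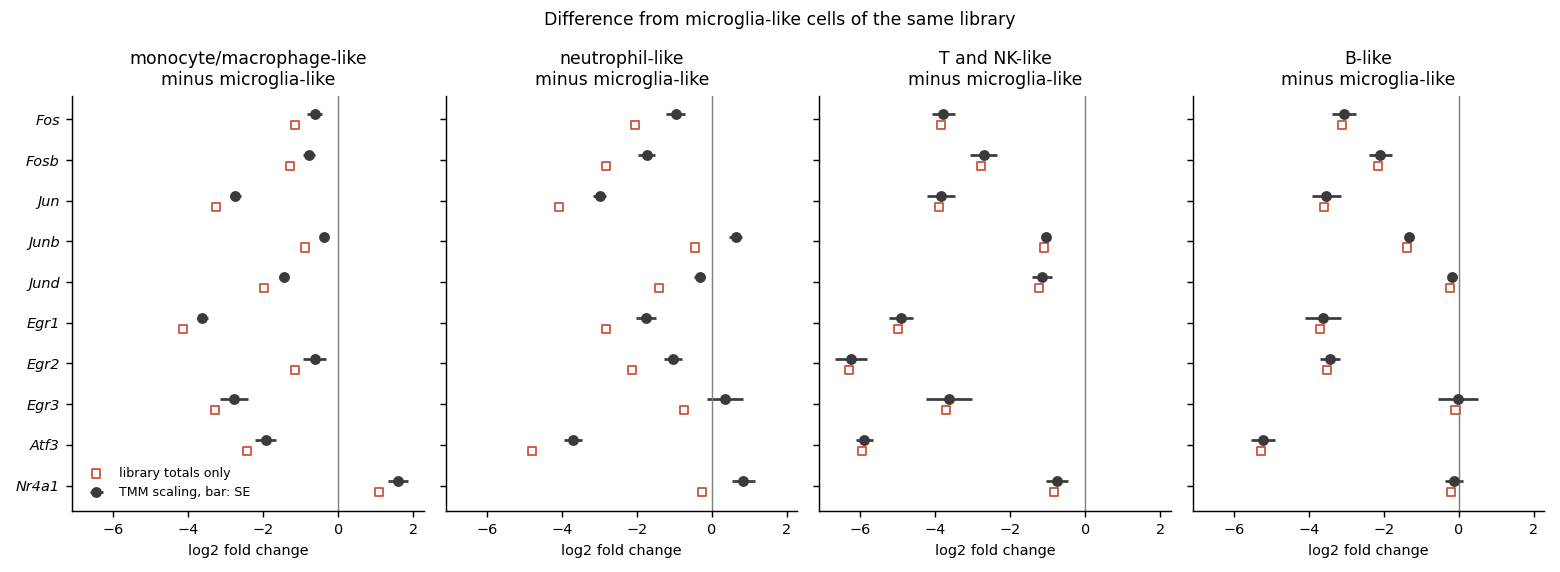
Log2 difference of each member from microglia-like cells in 4 immune classes (filled points: edgeR with TMM and the library as a block, bars 1 SE; open squares: library totals). Nr4a1 lies above 0 in monocyte/macrophage-like cells at 1.59, while Jun is below 0 in all 4 classes; Junb at 0.64 and Nr4a1 at 0.84 in neutrophil-like cells turn to -0.45 and -0.25 with library totals, and Egr3 there from 0.34 to -0.75.

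The 2 infiltrating myeloid classes were compared with each other as well. In neutrophil-like cells 4 members were higher and 3 lower than in monocyte/macrophage-like cells, against 36.3% and 36.9% of all genes. These counts lie near the shares over all genes, and the median log2 difference was -0.07 over the members and -0.03 over all genes. Egr3 (log2 3.38 ± 0.40, edgeR adjusted p = 7.33e-06), Egr1 (2.03 ± 0.29), Jund (1.27 ± 0.12) and Junb (1.14 ± 0.15) were higher in neutrophil-like cells. Atf3 (-1.63 ± 0.24), Fosb (-0.83 ± 0.19) and Nr4a1 (-0.60 ± 0.17, edgeR adjusted p = 0.00591) were lower. The 7 calls had the same sign with library totals, although there 20.1% of all genes were higher and 56.4% lower, and the median over all genes moved from -0.03 to -0.72. Fos (-0.21 ± 0.15), Jun (-0.11 ± 0.15) and Egr2 (-0.03 ± 0.26) did not pass. In the contralateral libraries alone Nr4a1 did not pass (-0.52, edgeR adjusted p = 0.0934).

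Counting cells at equal depth also put microglia-like cells above the other 4 classes compared in every library for Jun and Egr1, but not for Fos. Each cell with at least 2000 UMIs was thinned to 2000 UMIs, and the share of cells with at least 1 UMI of a gene was taken per library. Jun was detected in a median of 91.0% of microglia-like, 49.0% of monocyte/macrophage-like, 32.8% of neutrophil-like and 31.0% of T and NK-like cells. Egr1 was detected in 73.9% of microglia-like, 34.2% of neutrophil-like, 14.1% of monocyte/macrophage-like, 12.8% of B-like and 8.78% of T and NK-like cells. Below microglia-like cells the order was not that of the CPM medians. By CPM, Jun was higher in T and NK-like (320 CPM) than in neutrophil-like cells (293 CPM). Egr1 was higher by CPM in B-like (138 CPM) than in monocyte/macrophage-like cells (104 CPM). Fos was detected in 82.2% of microglia-like, 75.4% of monocyte/macrophage-like and 60.7% of neutrophil-like cells, but it was higher than in microglia-like cells in 3 of 8 libraries for the former and in 4 of 8 for the latter, although its neutrophil-like CPM was lower in 8 of 8. Nr4a1 was higher in neutrophil-like than in microglia-like cells in 4 of 8 libraries by this share. Nr4a1 was detected in 49.7% of monocyte/macrophage-like cells against 21.2% of microglia-like cells, and the share was higher in the former in 8 of 8 libraries. Junb was detected in 94.0% of neutrophil-like and 89.4% of microglia-like cells, higher in neutrophil-like cells in 8 of 8 libraries although its CPM was higher there in only 1 of 8, so no order is read from that share. The mean number of members detected per thinned cell had a median over libraries of 5.85 in microglia-like, 4.18 in monocyte/macrophage-like, 3.63 in neutrophil-like, 3.07 in B-like and 2.77 in T and NK-like cells.

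The share of UMIs held by the top microglia-like cells differed between members and libraries. In thinned cells, the 10% of cells with the most member UMIs held 22.4% to 32.6% of all member UMIs of microglia-like cells in a library, with a median of 26.5%. For Junb alone the top 10% held a median of 27.8%, for Jun 31.7%, for Egr1 33.7% and for Fos 34.5%. The share was higher for Fosb (50.9%) and Nr4a1 (71.9%), which were detected in a median of 46.6% and 21.2% of thinned cells. A low count per cell raises this share by itself, so no narrower spread is read from these 2 values. At this depth Egr2 and Egr3 gave too few UMIs per cell to say. In the contralateral 24 h library labelled WT the top 10% of cells held 56.4% of Fos, 64.2% of Egr1 and 54.1% of Atf3 UMIs, more than 1.5 times the medians for these genes. That library also gave the lowest mean number of members per cell, 4.21, and the other 7 libraries lay above it. Its mean of member UMIs per thinned cell was the lowest too, at 28.2. A low count per cell raises the top share by itself, and its part in the higher shares of this library was not tested.

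Smaller classes are given without a test, each pooled over libraries with an exact Poisson interval of 95% that covers counting error only. In 125 border macrophage-like cells, the macrophages of meninges and vessels, Fos was at 4381 CPM (4264 to 4500 CPM), Jun at 4675 CPM (4554 to 4798 CPM) and Atf3 at 1141 CPM (1082 to 1203 CPM). Their Nr4a1 was at 440 CPM (404 to 479 CPM) and their Egr2 at 123 CPM (104 to 144 CPM). Only 3 libraries held at least 20 border macrophage-like cells. In these, Fos (2491 to 5644 CPM) and Jun (3472 to 5885 CPM) overlapped the microglia-like ranges, while Junb (1931 to 2881 CPM) lay below. In 58 endothelial-like cells Jun was at 1703 CPM (1597 to 1813 CPM) and Egr1 at 592 CPM (531 to 659 CPM). In 83 cells of the oligodendrocyte lineage Egr1 was at 609 CPM (574 to 646 CPM) and Fos at 1293 CPM (1241 to 1347 CPM), and in 118 dendritic-like cells Fos was at 712 CPM (674 to 752 CPM) and Jun at 187 CPM (168 to 208 CPM). Cells gated on erythrocyte markers (454 cells) held as much, with Fos at 1530 CPM, Jun at 1385 CPM and Egr1 at 748 CPM. The microglial markers stood at 27.1% of their microglia-like level in endothelial-like, 21.3% in erythrocyte-like, 17.7% in border macrophage-like, 13.9% in oligodendrocyte lineage and 3.31% in dendritic-like cells. The part of microglial transcripts in the values of these classes was not tested, and no order is read from them.

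Within microglia-like cells the members depended on state. States were gated on markers that hold no member, which gave 13581 homeostatic cells, 450 stroke-associated cells (high in Spp1, Gpnmb and related genes) and 3846 cytokine-producing cells. In 4 libraries both homeostatic and stroke-associated cells numbered at least 20, namely 3 ipsilateral ones and the contralateral 48 h library labelled Prdx1-/-. In those libraries 9 members were lower in stroke-associated cells, none was higher and 1 did not pass, where 19.9% of all genes were lower and 16.9% higher. Jun ranged from 700 to 1335 CPM in stroke-associated and from 4384 to 7438 CPM in homeostatic cells, with no overlap, and was lower by 2.82 ± 0.26 on the log2 scale (edgeR adjusted p = 5.38e-06, log2 -2.82, 4 of 4 libraries). Fosb ranged from 44.6 to 165 CPM against 420 to 1358 CPM (log2 -3.01 ± 0.17, edgeR adjusted p = 1.71e-07). Egr3 was at 0 to 6.97 CPM (median 1.80 CPM) against 12.7 to 114 CPM (log2 -3.47 ± 0.37). Its size is uncertain at this low level, with -5.39 to -2.89 when 1 library was left out.

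The other called members were lower by less. Egr2 (log2 -2.81 ± 0.18), Egr1 (-1.83 ± 0.21), Fos (-1.65 ± 0.23), Junb (-1.54 ± 0.22) and Jund (-1.43 ± 0.19) were each lower in 4 of 4 libraries. Atf3 was lower least (-0.79 ± 0.20, edgeR adjusted p = 0.00794), and it no longer passed when either ipsilateral 24 h library was left out (-0.73 without the one labelled WT and -0.66 without the other, edgeR adjusted p = 0.0834 and 0.0942). Nr4a1 did not pass (-0.73 ± 0.42, adjusted p = 0.248 by edgeR). Stroke-associated cells held a median of 13186 UMIs and homeostatic cells 7246 UMIs; the part of depth in the result was not tested. Cytokine-producing cells, gated on Ccl3, Ccl4, Tnf, Il1a, Il1b and Cxcl2, were not tested, and their medians over 8 libraries were 3895 CPM for Jun, 3407 CPM for Atf3, 321 CPM for Nr4a1 and 76.2 CPM for Egr3, against 6172, 2206, 135 and 21.5 CPM in homeostatic cells.

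**Figure D3:**
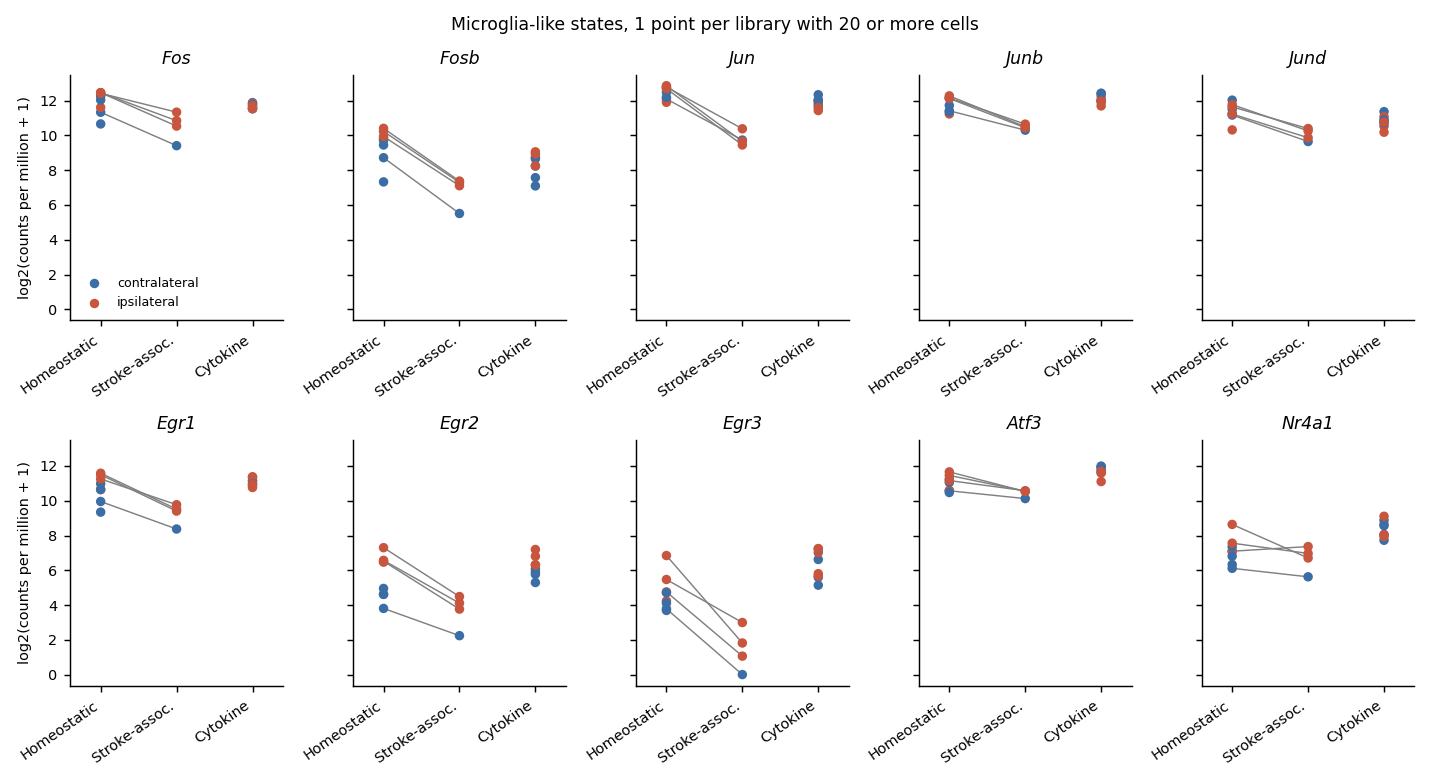
Level of each member, as log2(CPM + 1), in homeostatic, stroke-associated and cytokine-producing microglia-like cells, 1 point per library with at least 20 cells of the state, with homeostatic and stroke-associated points of a library joined. In stroke-associated cells Jun lies between 700 and 1335 CPM, below every homeostatic point, whereas the Nr4a1 ranges overlap.

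Between hemispheres, 3 members were higher ipsilaterally in microglia-like cells, none was lower and 7 did not pass, where 22.0% of all genes were higher and 20.9% lower. The count of higher members lies near the share over all genes. The fit was additive in hemisphere, genotype label and time over all 8 libraries. With the 24 h values of the WT and the Prdx1-/- label first and the 48 h values of both labels after them, Egr2 was at 27.3, 30.8, 38.3 and 19.4 CPM contralaterally and at 71.1, 77.6, 118 and 128 CPM ipsilaterally. The Egr2 ranges did not overlap, and the difference was 1.83 ± 0.28 on the log2 scale (edgeR adjusted p = 0.00524, higher in 4 of 4 pairs). Nr4a1 was at 139, 114, 232 and 124 CPM contralaterally and at 212, 235, 469 and 339 CPM ipsilaterally in the same order. It was higher in 4 of 4 pairs with overlapping ranges, by 1.15 ± 0.18 on the log2 scale (edgeR adjusted p = 0.00275).

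Egr3 was at 19.5, 28.7, 52.5 and 22.8 CPM contralaterally and at 42.2, 43.6, 125 and 107 CPM ipsilaterally, higher in 4 of 4 pairs with overlapping ranges (log2 1.34 ± 0.37, edgeR adjusted p = 0.0394). The Egr3 call held without the contralateral 24 h or the contralateral 48 h library labelled Prdx1-/-, and was lost without any 1 of the other 6 (1.21 to 1.51, edgeR adjusted p = 0.0788 to 0.137). In the 48 h libraries alone Egr2 (2.21, edgeR adjusted p = 0.236) and Egr3 (1.79, edgeR adjusted p = 0.244) did not pass. With library totals in place of TMM the same 3 members were higher, and Jun (-0.36) and Jund (-0.56) were called lower besides. The median over all genes was then -0.125 in place of -0.003, with 14.6% of genes higher and 28.4% lower. Fos (0.25 ± 0.36), Fosb (0.49 ± 0.55), Jun (-0.25 with TMM), Junb (0.22 ± 0.16), Jund (-0.45 with TMM), Egr1 (0.64 ± 0.29) and Atf3 (0.45 ± 0.20) did not pass. In CPM, Jun and Jund were lower ipsilaterally in 4 of 4 pairs and Egr1 was higher in 4 of 4, all with overlapping ranges. With each contralateral and ipsilateral pair as a block, a fit chosen after seeing the data, 6 members were called, where 21.8% of all genes were higher and 20.6% lower: Egr2 (1.86), Egr3 (1.40), Nr4a1 (1.15), Egr1 (0.72, edgeR adjusted p = 0.0346) and Atf3 (0.47, edgeR adjusted p = 0.0491) higher and Jund (-0.42, edgeR adjusted p = 0.0165) lower. The labels do not say that the hemispheres of a pair came from the same animals. Fos was at 1814, 4781, 4141 and 2706 CPM contralaterally and at 3870, 4083, 3665 and 3134 CPM ipsilaterally, so the hemispheres overlapped widely, and without the contralateral 24 h library labelled WT its difference was -0.04.

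Other transcripts moved with hemisphere in the same cells. The 10 neutrophil markers, all detected, summed to 30.0 to 164 CPM contralaterally and to 299 to 1304 CPM ipsilaterally in microglia-like cells, and the 12 microglial markers to 18880 to 28240 CPM contralaterally and 12340 to 14210 CPM ipsilaterally. Their part in the differences of Egr2, Egr3 and Nr4a1 was not tested. The hemispheres also differ in state, since homeostatic cells numbered 3736, 3603, 2517 and 1977 contralaterally and 956, 455, 235 and 102 ipsilaterally. Within homeostatic cells alone Egr2 was at 23.5, 23.5, 30.0 and 12.98 CPM contralaterally and at 90.8, 93.9, 157 and 87.4 CPM ipsilaterally, again without overlap. Fosb did not overlap there either, at 160 to 845 CPM contralaterally and 897 to 1358 CPM ipsilaterally. Fos, Egr1, Egr3, Atf3 and Nr4a1 were higher ipsilaterally in 4 of 4 pairs of homeostatic cells with overlapping ranges, with Fos at 1619 to 4915 CPM against 3124 to 5647 CPM.

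A fit of homeostatic cells alone, also chosen after seeing the data, called 1 member, where 4.77% of all genes were higher and 2.86% lower. Egr2 was higher by 2.30 ± 0.31 on the log2 scale (edgeR adjusted p = 0.0213). Egr3 (1.58 ± 0.35, edgeR adjusted p = 0.0678) and Nr4a1 (1.05 ± 0.24, edgeR adjusted p = 0.0538) did not pass, nor did Fosb (1.17 ± 0.62) or Fos (0.64 ± 0.49). In cytokine-producing cells, which were not tested, Egr2 was at 38.3 to 66.5 CPM contralaterally and 77.8 to 146 CPM ipsilaterally, without overlap. There Egr3 and Nr4a1 were each higher ipsilaterally in 3 of 4 pairs only, Fos in 2 of 4, and Jun, Junb and Jund were lower in 4 of 4.

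**Figure D4:**
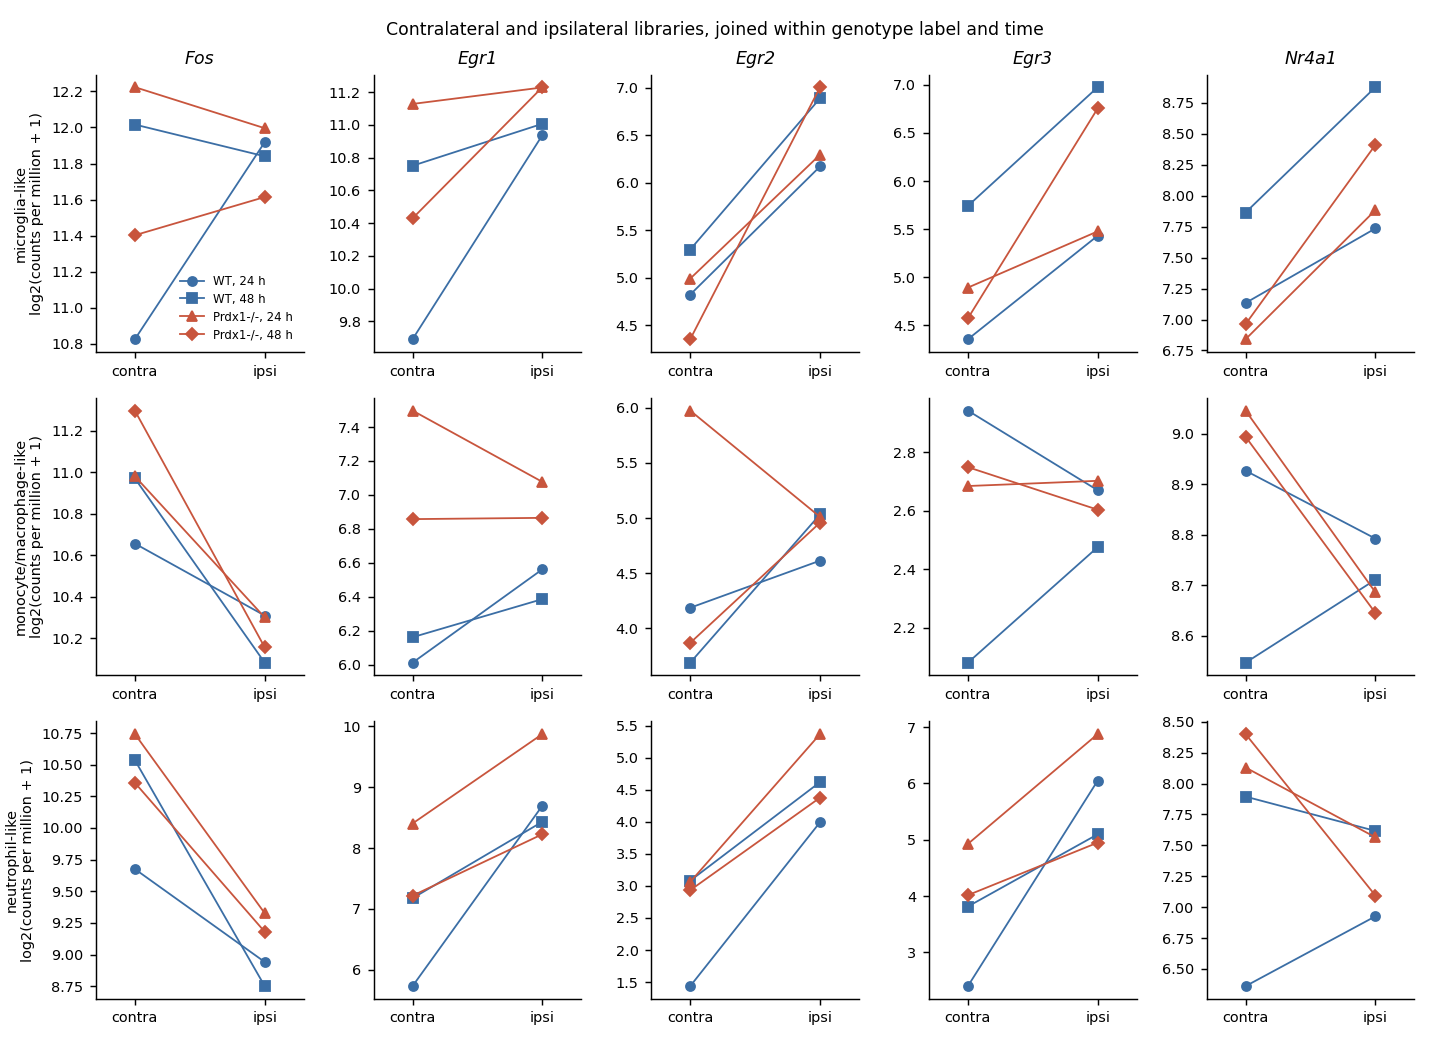
Level of Fos, Egr1, Egr2, Egr3 and Nr4a1, as log2(CPM + 1) on an axis of its own in each panel, in the contralateral and ipsilateral library of each genotype label and time, joined by a line, in microglia-like, monocyte/macrophage-like and neutrophil-like cells. Egr2 is higher ipsilaterally in 4 of 4 pairs in microglia-like and in neutrophil-like cells, and Fos is lower ipsilaterally in 4 of 4 pairs in neutrophil-like and monocyte/macrophage-like cells but in 2 of 4 in microglia-like cells.

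In neutrophil-like and monocyte/macrophage-like cells no member passed by hemisphere with edgeR's quasi-likelihood test, where 0.0% and 1.32% of all genes were called in either direction. Here and below, no share over all genes is given for DESeq2, for no filter or with 1 library left out. Counts of members called there are not set against one. In neutrophil-like cells 4 members had an unadjusted p under 0.05, and DESeq2 called the same number: Fos lower, and Egr1, Egr2 and Egr3 higher. Fos was at 817, 1712, 1484 and 1311 CPM contralaterally and at 491, 641, 430 and 579 CPM ipsilaterally, without overlap (log2 -1.22 ± 0.27, edgeR adjusted p = 0.164). Egr3 was at 4.27, 29.4, 13.1 and 15.2 CPM contralaterally and at 65.4, 117, 33.3 and 29.9 CPM ipsilaterally, also without overlap (2.01 ± 0.49, edgeR adjusted p = 0.209). The contralateral neutrophil values rest on 44 to 306 cells, with 5 to 32 UMIs of Egr3 and 2 to 14 UMIs of Egr2 per library, so their depth is low. Without that same library (contralateral 24 h, WT) 1 member was called in neutrophil-like cells, and without the ipsilateral 48 h library labelled Prdx1-/- 4 were. With no filter on low counts, edgeR also called 4. In monocyte/macrophage-like cells 3 members had an unadjusted p under 0.05 and DESeq2 called 3, Fos, Jun and Atf3, all lower ipsilaterally.

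The monocyte/macrophage-like values of these 3 did not overlap between hemispheres. Fos was at 1613, 2020, 2006 and 2516 CPM contralaterally and at 1268, 1260, 1083 and 1140 CPM ipsilaterally (log2 -0.69 ± 0.16, edgeR adjusted p = 0.0885). Jun was at 465 to 794 CPM against 316 to 432 CPM (-0.65 ± 0.15, edgeR adjusted p = 0.0897) and Atf3 at 499 to 938 CPM against 249 to 455 CPM (-0.84 ± 0.17, edgeR adjusted p = 0.0688). Without the contralateral 24 h library labelled WT, 2 members were called in monocyte/macrophage-like cells. In T and NK-like cells Egr2 and Egr3 did not pass the filter on low counts, and of the 8 members tested by hemisphere none passed, where 1.62% of all genes were called; 2 had an unadjusted p under 0.05, Jun (-1.38 ± 0.39) and Atf3 (-0.65 ± 0.24), and DESeq2 called 0. With the pair of hemispheres as a block Jun was called lower (-1.32, edgeR adjusted p = 1.25e-05), where 1.40% of all genes were higher and 0.822% lower. Without that block, 1 member was also called when the ipsilateral 24 h WT library, or else the contralateral 24 h library with the label Prdx1-/-, was left out.

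The hemisphere difference itself was compared between cell types, in a fit in which whatever all cells of a library share cancels out. Between neutrophil-like and microglia-like cells 1 member passed, where 0.49% of all genes were called. Fos had a hemisphere difference of -1.44 ± 0.30 on the log2 scale in neutrophil-like relative to microglia-like cells (edgeR adjusted p = 0.0462). The adjusted p was 0.0151 without the ipsilateral 48 h library labelled Prdx1-/- and 0.0942 to 0.137 without any 1 of the other 7, so the call depends on 7 of the 8 libraries. Egr1 (1.14 ± 0.38) and Nr4a1 (-1.37 ± 0.45) each had an edgeR adjusted p of 0.172. Of the genes called, 37 were higher and 24 lower with TMM; with totals 0.169% of all genes were higher and 0.265% lower. Between monocyte/macrophage-like and microglia-like cells 0 members passed, where 0.972% of all genes were called; 4 members had an unadjusted p under 0.05 and DESeq2 called 3 (Fos, Atf3 and Nr4a1, each lower in monocyte/macrophage-like cells).

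By genotype label no member passed in any of the 4 classes with edgeR's quasi-likelihood test, and DESeq2 also called 0 in each. Of all genes, 0.0733% were called in microglia-like, 0.0% in monocyte/macrophage-like, 0.0% in neutrophil-like and 0.0288% in T and NK-like cells. The unadjusted p was under 0.05 for 0 members in microglia-like, neutrophil-like and T and NK-like cells and for 1 in monocyte/macrophage-like cells, which was Egr1 (log2 0.76 ± 0.19, edgeR adjusted p = 0.9997). These comparisons follow the label, although Prdx1 itself was still present at 24 h in the libraries labelled Prdx1-/-. At 48 h Prdx1 was at 5.94 and 5.52 CPM in microglia-like cells with that label. In the 48 h libraries alone, Fos (-0.46, edgeR adjusted p = 0.0345) and Nr4a1 (-0.72, edgeR adjusted p = 0.0044) were called lower in microglia-like cells labelled Prdx1-/-, from 2 libraries per label and with Fos at 0.14 over all 8. The share of all genes called in that fit is not given here, so these calls are not set against it.

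By time no member passed in any class, where 13.5% of all genes were called in microglia-like, 0.352% in monocyte/macrophage-like, 0.0335% in neutrophil-like and 0.0577% in T and NK-like cells. The unadjusted p was under 0.05 for 2 members in microglia-like, 4 in monocyte/macrophage-like, 1 in neutrophil-like and 1 in T and NK-like cells, and DESeq2 called 2, 1, 0 and 0. In microglia-like cells these 2 were Jund (48 h minus 24 h, log2 -0.55 ± 0.18, edgeR adjusted p = 0.0849) and Nr4a1 (0.57 ± 0.18, edgeR adjusted p = 0.0835). With totals, 9.01% of all genes were higher at 48 h and 3.08% lower in microglia-like cells, against 1019 genes higher and 828 lower with TMM. In the 4 ipsilateral libraries alone, Egr3 (1.39, edgeR adjusted p = 4.46e-10), Nr4a1 (0.79) and Egr2 (0.67) were called higher at 48 h and Jund (-0.65) and Atf3 (-0.44) lower. The share of all genes called in that fit is not given here, so these calls are not set against it. Leaving out 1 library gave 2 called members in microglia-like cells without the contralateral 24 h or the contralateral 48 h library labelled WT and 3 without the contralateral 48 h library labelled Prdx1-/-. In neutrophil-like cells 4 members were called by time without the contralateral 24 h library labelled WT, and in T and NK-like cells 1 was called without any 1 of 3 of the 24 h libraries (both labelled WT and the contralateral one labelled Prdx1-/-).

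Genes that act beside the members were counted from lists chosen by function. Of 20 further immediate-early and early-response factors, 19 could be tested by hemisphere in microglia-like cells, and 11 were higher ipsilaterally and 1 lower, where 22.0% of all genes were higher and 20.9% lower (median log2 0.99, against -0.003 over all genes). Among them Fosl2 (1.38 ± 0.10), which pairs with Jun as Fos does, and Nr4a2 (2.47 ± 0.22), a close relative of Nr4a1, were higher, as was Fosl1, whose size is not given because it rested on a few contralateral UMIs per library. Of 17 feedback inhibitors of MAP kinase, cytokine and NF-kB signalling, 6 were higher and 2 lower, with the phosphatase gene Dusp5 at 3.10 ± 0.17. Of 18 tested upstream factors and kinases 2 were higher, among them Srf (0.76 ± 0.09), which binds the CArG box, and 4 were lower, among them Mef2a (-0.68 ± 0.09). Of 13 chemokines and cytokines linked to microglia activated by dissociation of the tissue 9 were higher and none lower, with Cxcl2 at 2.92 ± 0.19. This list holds the markers of the cytokine-producing state (Ccl3, Ccl4, Tnf, Il1a, Il1b and Cxcl2), and the part of digestion in its count was not tested. Of 14 further zipper proteins able to pair with Fos, Jun or each other 7 were higher and 3 lower, with Batf at 0.945 ± 0.124 and Maf at -1.26 ± 0.09. Of 11 heat shock genes, 2 were higher and 9 did not pass. The counts of the upstream factors and of the heat shock genes lie near or below the shares over all genes.

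The same lists differed between cells. In neutrophil-like against microglia-like cells 11 of 18 tested further early factors were higher and 5 lower, where 31.9% of all genes were higher and 43.1% lower. With library totals 4 were higher and 8 lower, where 16.0% of all genes were higher and 67.6% lower, so the direction of this list depends on the scaling. With TMM the list held Fosl2 at 4.49 ± 0.23 and Klf4 at -4.47 ± 0.23, and 0 of 11 heat shock genes were higher and 10 lower, with Hspa1a at -3.84 ± 0.25. In stroke-associated against homeostatic microglia-like cells 10 of 17 tested further early factors were lower and 2 higher, and 10 of 15 feedback inhibitors were lower and 3 higher. Gem (-2.48 ± 0.22), Btg2 (-2.05 ± 0.21) and Klf2 (-2.59 ± 0.28) were lower there, as were the heat shock genes Hspa1b (-5.33 ± 0.28) and Hspa1a (-3.84 ± 0.37). Of all genes in that comparison 19.9% were lower and 16.9% higher. These lists share their libraries and are described by their counts alone.

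The members did not all follow one pattern over the 46 sums of a class in a library, in 8 classes, with at least 20 cells. Fos and Atf3 were the most alike pair (Pearson r = 0.903 of log2 CPM over 46 sums, which share libraries), followed by Jun with Egr1 at 0.822 and Jun with Atf3 at 0.821. Jund and Nr4a1 were the least alike, at -0.097. The genes most like the mean of the standardised members were Pla2g15 (0.906), Lacc1 (0.898), Zfp36 (0.879), Rcan1 (0.876), Ccl3 (0.869), Rhob (0.862), C1qc (0.862) and Cltc (0.861). The points differ in class, library and depth, and the values are given as a description.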

How the data were processed

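Single-cell 3' RNA libraries were compared from 8 groups of mice or hemispheres, 1 library each, grouped by the labels. Values are UMI counts per gene and cell, deposited by the authors as whole-number tables, 1 for each library; the submitters' processing notes list Cell Ranger, Seurat and the build mm10 with no version or setting, and per the labels the cells were sorted live. The authors' cell filter is not given in the sources used here.

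Barcodes under 200 genes or above 10% of mitochondrial UMIs were dropped, and the cells with the highest Scrublet scores (scanpy 1.11.5) were removed at 0.8% per 1000 cells of a library. A class needed at least 3 detected markers and a marker score 1.2 times the next class. Leiden clusters (leidenalg 0.10.2, igraph 0.11.9) used 2000 variable genes without the members, 30 components, 15 neighbours, a resolution of 1 and seed 0. Counts were summed over each class with at least 20 cells in a library and tested with edgeR 4.0.16 (quasi-likelihood, TMM, filterByExpr, limma 3.58.1, R 4.3.3). P-values were adjusted by Benjamini-Hochberg over all genes passing the filter and called under 0.05; a prior count of 2 was used for log2 CPM. Shares were taken from cells thinned to 2000 UMIs. Python 3.11.15 with numpy 2.4.6, pandas 2.3.3, scipy 1.17.1 and matplotlib 3.10.9 did the rest, and the fits were tested on simulated data.

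The 10 members, the marker genes and the gene lists were chosen with earlier results of these data known. Named are all members, from each other list genes among the 3 with the smallest p in a comparison, and the 8 genes most like the members' mean among genes with a mean of at least 20 CPM. Alternatives were DESeq2 1.42.0, library totals, no filter, Leiden classes, doublets kept, subsets of libraries, each library left out and, added after seeing the data, a fit by hemisphere with the pair as a block and one of homeostatic cells alone. Promoter letters came from RefSeq (GRCm38.p6), which gave a promoter for 8 of the 10 members in the table used here. Intervals cover counting error only.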

Additional observations from a re-analysis of the deposited data

Results flagged for a closer look

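The hemisphere difference of Fos differed between neutrophil-like and microglia-like cells in the test of that difference itself, with a log2 value of -1.438 for neutrophil-like minus microglia-like cells (edgeR adjusted p = 0.0462). The call was lost in 7 of the 8 fits that left out 1 library, with an edgeR adjusted p of up to 0.137, so it depends on 7 of the 8 libraries. Fos was lower ipsilaterally in 4 of 4 pairs in neutrophil-like cells and in 2 of 4 in microglia-like cells.

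The CPM of Egr3 had opposite signs between hemispheres in all pairs of some classes. No test of the hemisphere difference between classes was set up with T and NK-like cells, where Egr3 also did not pass the filter on low counts. Egr3 was higher ipsilaterally in 4 of 4 pairs in microglia-like cells and in 4 of 4 in neutrophil-like cells. In T and NK-like cells it was higher in 0 of 4 pairs and lower in 4, on 7 against 1, 2 against 0, 3 against 3 and 2 against 2 UMIs (contralateral against ipsilateral) for the WT and then the Prdx1-/- label, first at 24 h and then at 48 h. Both 48 h pairs thus had equal UMIs and differed only through the library totals, so no direction is read from the T and NK-like values. Without the filter the T and NK-like difference was -1.59 on the log2 scale (edgeR adjusted p = 0.602).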

How the results depend on the processing

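Of 54 called member differences, 39 were called under every alternative run, and of their 756 alternatives 709 kept direction and call, 45 kept the direction only and 2 turned. In neutrophil-like minus microglia-like cells, library totals gave -0.447 for Junb (edgeR adjusted p = 0.0304), -0.749 for Egr3 and -0.249 for Nr4a1, where TMM centres most genes near no change; Egr3 was at -0.202 in contralateral libraries alone and -0.044 to 0.57 with 1 library left out. The other sign changes were in differences that had not passed, and the cause was not tested. In monocyte/macrophage-like minus microglia-like cells Egr2 was at 0.082 in contralateral libraries alone. In B-like minus microglia-like cells Egr3 was at 0.184 with Leiden classes, 1.214 in contralateral libraries (edgeR adjusted p = 0.000239) and -0.339 to 0.362 with 1 library left out, and Nr4a1 at 0.099, 0.265 and -0.325 to 0.016 in the same settings. In ipsilateral libraries alone both were called lower, Egr3 at -0.971 (edgeR adjusted p = 0.0143) and Nr4a1 at -0.41 (edgeR adjusted p = 0.0227). In neutrophil-like minus monocyte/macrophage-like cells Jun was at 0.163 in ipsilateral libraries and -0.234 to 0.015 with 1 left out, and Egr2 at 0.35 with Leiden classes, 0.342 in ipsilateral libraries and -0.276 to 0.099 with 1 left out. In microglia-like cells Jun was at 0.249 by hemisphere in homeostatic cells alone, Fos was at -0.037 to 0.563 by hemisphere with 1 library left out, and by genotype label at -0.456 in 48 h libraries and -0.193 to 0.427 with 1 left out. By hemisphere in the 24 h libraries alone, Egr2 in monocyte/macrophage-like cells was at -0.225, and in T and NK-like cells Fos was at 0.122 (-0.571 to 0.019 with 1 library left out) and Fosb at 0.128.

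Counts of called members moved as follows. Shares of all genes called are not given for these alternatives, except where printed above. The counts are therefore not read as results about the members. By hemisphere in microglia-like cells, totals called 5, the fit with the hemisphere pair as a block 6 and homeostatic cells alone 1. In monocyte/macrophage-like cells DESeq2 called 3, totals 2, no filter 1, Leiden classes 1, the 48 h libraries 3, and leaving out 1 library 0 to 2. In neutrophil-like cells DESeq2 called 4, no filter 4, Leiden classes 3, and leaving out 1 library 0 to 4. In T and NK-like cells no filter called 1, the 48 h libraries 3, the 24 h libraries 1, the libraries labelled WT 1, the pair block 1, and leaving out 1 library 0 to 1. By genotype label in microglia-like cells the 48 h libraries called 2. By time, DESeq2 called 2 in microglia-like and 1 in monocyte/macrophage-like cells, and no filter called 1 in neutrophil-like and 1 in T and NK-like cells. By time in ipsilateral libraries alone, 5 were called in microglia-like, 1 in neutrophil-like and 1 in T and NK-like cells, and leaving out 1 library called 0 to 3, 0 to 4 and 0 to 1. For the hemisphere difference between cell types, Leiden classes called 2 and leaving out 1 library 0 to 2 against microglia-like cells in neutrophil-like cells, and DESeq2 called 3 in monocyte/macrophage-like cells. In homeostatic cells alone Egr3 (1.58, edgeR adjusted p = 0.0678) and Nr4a1 (1.05, edgeR adjusted p = 0.0538) lost their calls. Egr3 by hemisphere in microglia-like cells lost its call without the filter (1.32, edgeR adjusted p = 0.0756) and with Leiden classes (1.18, edgeR adjusted p = 0.0635). Nr4a1 lost its call in T and NK-like minus microglia-like cells without the filter (-0.75), with Leiden classes (-0.27), with doublets kept (-0.68) and in contralateral libraries (-0.07), with edgeR adjusted p-values of 0.096, 0.409, 0.0674 and 0.748, in neutrophil-like minus microglia-like cells without the filter (0.66, 0.0784), and in neutrophil-like minus monocyte/macrophage-like cells with Leiden classes (-0.37, 0.0548). Of 85 further member differences that did not pass and are not given one by one, 59 changed sign in at least 1 of their alternatives, to at most 0.73 on the log2 scale. The shares in thinned cells have no test and stand in the report.

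The labels give no shared replicate numbers, and the fits between cell types and states keep the library as a block. A fit with each contralateral and ipsilateral pair of 1 genotype label and time as a replicate block was added after seeing the data, as was the fit of homeostatic cells alone. It called 6 members in microglia-like cells in place of 3, and Jun in T and NK-like cells (-1.32, edgeR adjusted p = 1.25e-05), and 0 in monocyte/macrophage-like and neutrophil-like cells as without the block; whether a pair shares animals is not given. The main limits are the single library per group, the Prdx1 level in the 24 h libraries labelled Prdx1-/-, depth, and the digestion. Cell types and states may respond to digestion to different degrees, and its part in their differences was not tested. Egr2 and Egr3 rest on few UMIs in lymphoid and contralateral neutrophil-like cells, so small differences there were not detectable at this depth. Egr3 was also low in stroke-associated cells, so the size of its difference there is uncertain. Subsets of 4 libraries leave 2 per arm in the fits within a class, and at most 4 blocks in the fits between classes. A p that misses the threshold in such a subset does not show that values did not differ.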
